A study of Homo sapiens with 6 samples.

Results

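The translation initiation factor genes were taken as all protein-coding genes in the count table whose symbol begins with *EIF1*, EIF2, EIF3, EIF4, *EIF5* or *EIF6*, without the *EIF2AK* kinases, the *EIF2C* genes and *EIF1AY*. This rule gave 51 of 63677 genes, and 46 of the 51 had enough counts to be among the 12507 genes tested. The study silenced *SNHG15*, a long noncoding RNA that hosts a small nucleolar RNA, in cells labelled LoVo, an established human colorectal cancer line grown in RPMI medium with serum. One group of 3 libraries came from cells given a scramble siRNA and the other group of 3 libraries from cells given siRNA against *SNHG15*, in both groups by lipid transfection at 25 nM for 48 h. The methods describe the *SNHG15* siRNA as a mixture of both siRNAs used in the study, so the effect of either one cannot be told apart here, and all 6 libraries come from 1 line with 1 control siRNA. The libraries were made from poly(A) RNA with a stranded kit and read as pairs of 75 bp, and each value in the table is the raw number of reads counted on a gene.

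Translation initiation brings the ribosome, the initiator tRNA and the start codon of an mRNA together. eIF2 carries the initiator tRNA to the small ribosomal subunit and eIF2B reloads eIF2 with GTP, while eIF1, eIF1A and the many-subunit complex eIF3 hold the small subunit in a form that can scan. The mRNA is brought in by eIF4F, in which eIF4E binds the cap, eIF4G is the scaffold and eIF4A unwinds the 5′ leader with the help of eIF4B and eIF4H, and the 4E-binding proteins compete with eIF4G for eIF4E. eIF5 and eIF5B complete start codon recognition and subunit joining. In tumor cells these steps are controlled in large part through mTOR signaling and the phosphorylation of eIF2, that is after the mRNAs have been made. Counts of mRNA do not measure that control directly.

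The libraries held 3446922 to 10256710 counts, the smallest being scramble replicate 3. The knockdown was present in every treated library, where *SNHG15* had 77.2, 83.1 and 87.2 CPM (reads of the gene per 1e6 counted reads) against 290, 277 and 261 in the scramble libraries, a log2 fold change of -1.74 (SE 0.12). *MYC* is a regulator of many genes of translation. It had 708, 757 and 591 CPM in the scramble and 291, 512 and 503 CPM in the siRNA libraries, without overlap. Its log2 fold change of -0.66 (SE 0.19, 95% interval -1.07 to -0.25) did not pass the threshold by edgeR (adjusted p = 0.0613). The paper, which used DESeq2, reports a significant fall of *MYC* by RNA-seq and a change by qRT-PCR. The cell type label was checked on 9 markers of intestinal epithelium. *KRT8*, *KRT18*, *CDX2* and *CDH1* were counted, and their summed level lay at 102 to 110 CPM in the scramble and 106 to 117 CPM in the siRNA libraries. *CDH1*, with 22 to 86 counts, had 6.45, 8.55 and 7.56 CPM in the scramble and 3.05, 5.18 and 5.05 CPM in the siRNA libraries. Its groups did not overlap, and its log2 fold change was -0.76 (SE 0.25, adjusted p = 0.0945). *KRT8*, *KRT18* and *CDX2* were at 0.26, -0.0071 and -0.10, with groups that overlapped. *EPCAM*, *KRT19*, *KRT20*, *VIL1* and *CEACAM5*, which colorectal lines of epithelial type usually carry, had 0 or 1 count in every library, that is 5 of the 9 markers. Some genes that every cell uses were also low in the same table, with 2 to 17 counts for *EEF1G*, a subunit of the elongation factor eEF1, and 5 to 17 for *EIF4E*. Whether the low marker counts share a reason with these was not tested. Of the markers of other cells, *PTPRC*, *COL1A2* and *DES* had at most 1 count in any library, *COL1A1* at most 9, and *VIM*, found in mesenchymal and many cultured cells, 214 to 692. The part of cell identity in the results below was not tested.

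Over the whole family the levels in both conditions lay close together. The 51 genes took 1.05% ± 0.00975 (SD, n = 3) of all counts in the scramble libraries and 1.05% ± 0.0238 (SD, n = 3) in the siRNA libraries (two-sided exact permutation test over the 6 libraries, p = 0.9). In these bulk samples, fewer cells of a kind and less RNA per cell cannot be told apart. With edgeR's quasi-likelihood test and Benjamini-Hochberg adjustment over all 12507 genes, 2 of the 46 tested members passed an adjusted p of 0.05, which is 4.35%, against 5.36% of all genes tested. Both members, *EIF3A* and *EIF4A1*, were higher in the siRNA libraries, where 3.13% of all genes were called higher. No member was called lower (0 by edgeR and 0 by DESeq2), against 2.23% of all genes, and 4 members were lower at an unadjusted p under 0.05. In all, 7 members (15.2%) had an unadjusted p under 0.05, against 22.5% of all genes. The CPM of both groups did not overlap in 9 members (19.6%), 4 of them higher and 5 lower in the siRNA libraries, against 28.8% of all genes. These shares lay below those of the genes at large, apart from the share called higher, which rests on 2 genes. The order of the called shares turned when single libraries were left out: 2 of 46 members stayed called, while 1.57%, 1.1%, 2.06% and 2.78% of all genes were called without scramble replicate 1, 2 or 3 or siRNA replicate 2. The members' share was also the larger without siRNA replicate 1 (6.52% against 6.34%), and nearly equal with the replicate block (4.35% against 4.34%). It was larger too with DESeq2 (4.08% against 3.27%) and with no filter (6.12% against 5.54%). The backgrounds of both these fits held all 23675 genes with counts rather than the 12507 of the main fit. Their shares are thus not on the same base as the main one. The number of members lower at an unadjusted p under 0.05 ran from 1 without scramble replicate 2 to 7 with the replicate block and GC offset.

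The differences were also small in size. The median log2 fold change was -0.04 over the members and 0.0005 over all genes tested, and 31 members had a negative and 15 a positive value. The median absolute log2 fold change was 0.15 for the members and 0.22 for all genes. The 95% interval of the fold change lay within 1.5-fold in both directions for 36 of the 46 members (78.3%) and for 43.5% of all genes, and within 2-fold for 42 members (91.3%) and 81.1% of all genes. The members are more abundant than most genes, with a median of 105 CPM in the scramble libraries against 23.0 CPM over all genes tested, and the part of abundance in the narrower intervals was not tested.

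**Figure D1:**
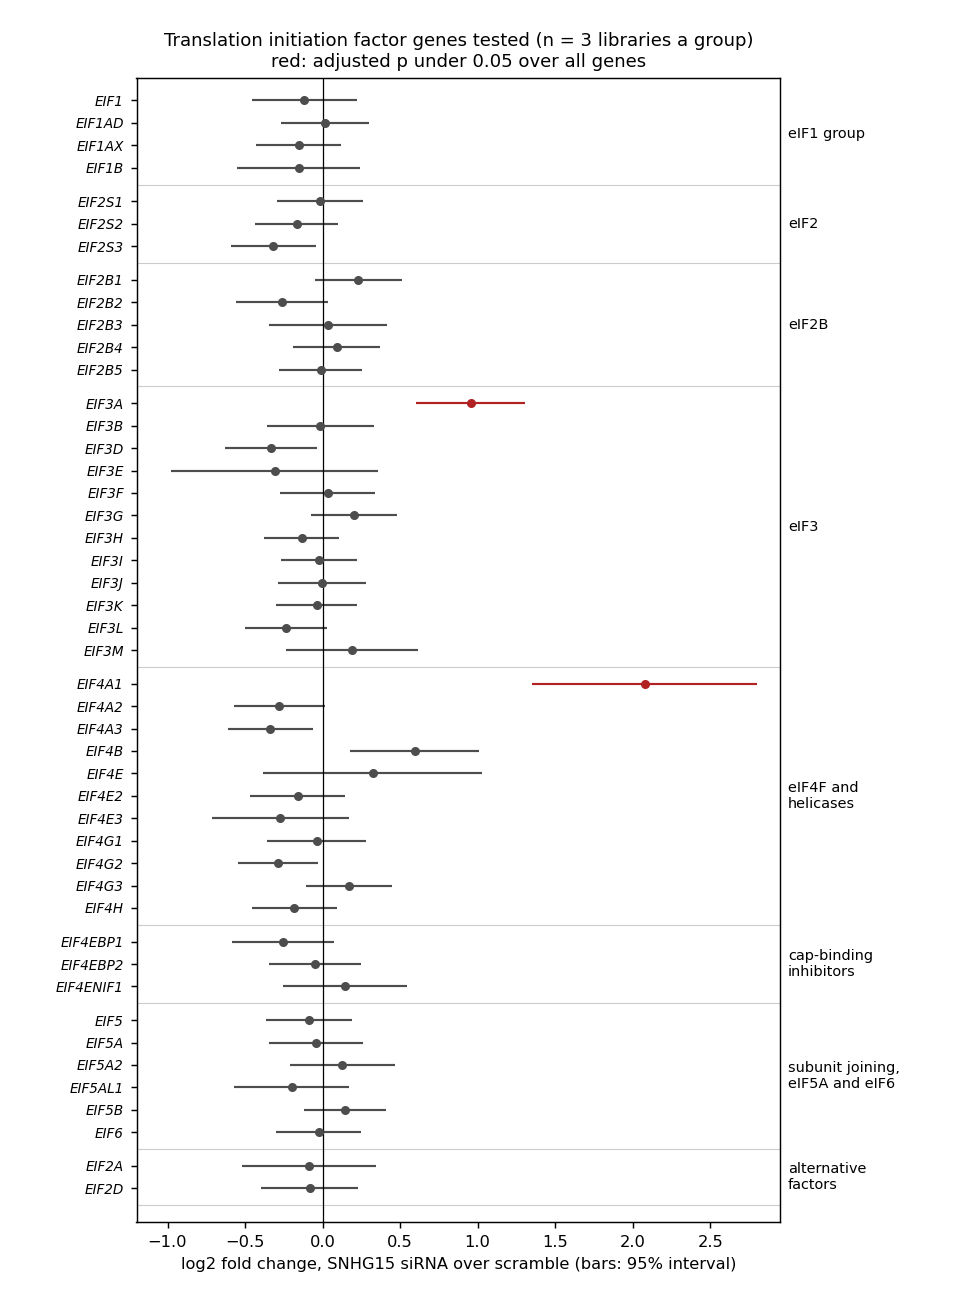
Log2 fold change of the 46 tested initiation factor genes (points, *SNHG15* siRNA over scramble, n = 3 libraries a group) with the 95% interval (bars), grouped by complex. *EIF3A* at 0.96 and *EIF4A1* at 2.08, in red, passed an adjusted p of 0.05, and the other 44 did not.

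eIF3 is the largest of the factors, and 1 of its 12 tested subunit genes was called changed. *EIF3A* encodes the largest subunit, a scaffold on which other subunits assemble. In GRCh37 the gene spans chr10:120793182-120840329 (minus strand). It had 104, 108 and 85.0 CPM with the scramble siRNA and 242, 178 and 159.5 CPM with the *SNHG15* siRNA. Every siRNA library was thus above every scramble library, with siRNA replicate 1 the highest. The fold was 1.94, with a log2 fold change of 0.96 (SE 0.16, adjusted p = 0.00677). None of the 75-base stretches of its transcript occurs in an annotated transcript of another gene. Its exons share 61 bases with those of *NANOS1* on the opposite strand, a gene with 24 to 86 counts in a library against 281 to 1742 for *EIF3A*.

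The other 11 tested eIF3 genes did not pass the threshold, and their log2 fold changes ran from -0.33 for *EIF3D* to 0.20 for *EIF3G* around a median for the complex of -0.02. To set *EIF3A* against its partners, its log2 CPM was taken relative to the median of those 11 genes within each library. This difference was -1.12, -1.26 and -1.50 with the scramble siRNA and -0.31, -0.40 and -0.37 with the *SNHG15* siRNA. The shift was 0.93, close to the change of *EIF3A* in CPM. It is given as a description with no test, since *EIF3A* was taken for its call.

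**Figure D2:**
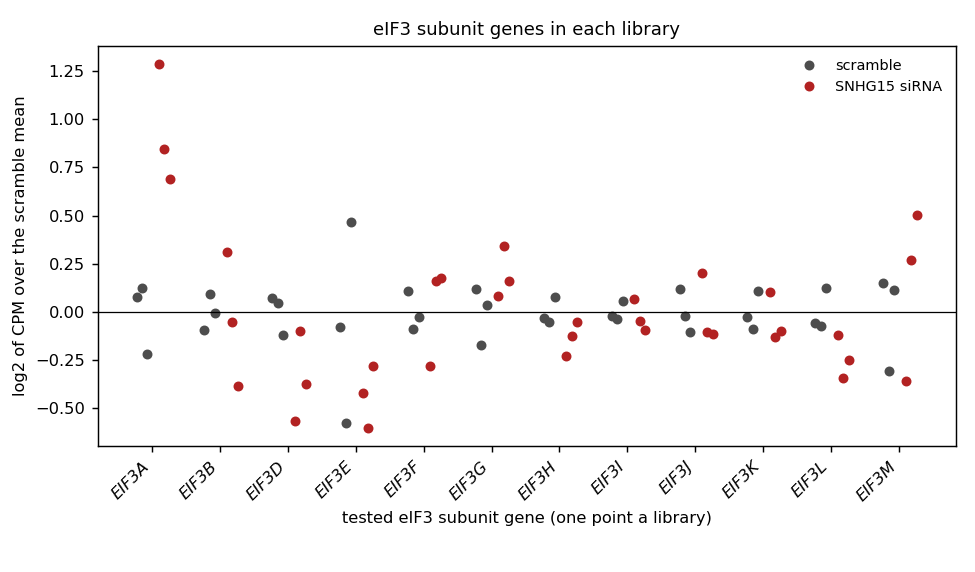
CPM of the 12 tested eIF3 subunit genes in each library, as log2 relative to the mean of the scramble libraries (black, scramble; red, *SNHG15* siRNA; 1 point a library). The 3 siRNA points of *EIF3A* lie above all other points of the plot, and the siRNA points of the other genes spread to both sides of 0.

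Among those partners, *EIF3D*, which can itself bind the cap of some mRNAs, had 537, 528 and 471 CPM in the scramble and 346, 478 and 395 CPM in the siRNA libraries. Its groups overlapped by 1 library, and its log2 fold change of -0.33 (SE 0.14) had an adjusted p of 0.172. *EIF3L*, a peripheral subunit, had 448, 442 and 508 against 429, 367 and 392 CPM, groups that did not overlap, with a log2 fold change of -0.23 (SE 0.12, adjusted p = 0.272). *EIF3H*, the most abundant member in CPM, had 1881, 1853 and 2028 against 1639, 1762 and 1853 CPM, with a log2 fold change of -0.13 (SE 0.11). The core subunits *EIF3B*, *EIF3I* and *EIF3G*, which form a module of their own in the complex, had log2 fold changes of -0.01 (SE 0.16), -0.02 (SE 0.11) and 0.20 (SE 0.13). *EIF3K* and *EIF3J*, the latter a loosely held subunit, had -0.04 (SE 0.12) and -0.0039 (SE 0.13). *EIF3F* and *EIF3M*, with 0.03 (SE 0.14) and 0.19 (SE 0.20), were spread within the siRNA group, where replicate 1 had 125 and 70.0 CPM and replicate 3 had 172 and 127 CPM. *EIF3E* was counted at only 17 to 30 reads in a library, so that its log2 fold change of -0.31 (SE 0.31) has an interval from -0.98 to 0.36.

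The group of eIF4F and its helicases held the other member called changed. *EIF4A1*, the main eIF4A helicase in most tissues, spans chr17:7476142-7482324 (plus strand) in GRCh37. It had 15, 14 and 4 counts with the scramble siRNA and 66, 34 and 44 counts with the *SNHG15* siRNA, that is 1.76, 1.39 and 1.21 CPM against 9.15, 4.89 and 5.17 CPM. Every siRNA library was above every scramble library, again with siRNA replicate 1 the highest. The log2 fold change was 2.08 (SE 0.34, adjusted p = 0.00569), a fold of 4.22 with an interval from 1.35 to 2.80 on the log2 scale.

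This value rests on very few reads, and the reads of *EIF4A1* are hard to place. All 75-base stretches of its transcript (100%) also occur in transcripts of other genes, among them a read-through transcript with its neighbor *SENP3*, the overlapping gene ENSG00000264772 and the processed pseudogenes *EIF4A1P10* and *EIF4A1P7*. Its exons share 2466 bases with other genes on the same strand. ENSG00000264772 had 0 to 7 counts in a library. *EIF4A1P10* had 134, 111 and 46 counts in the scramble and 80, 130 and 125 counts in the siRNA libraries, more than *EIF4A1* in every library, with a log2 fold change of 0.14 (adjusted p = 0.745). *EIF4A1P7* had 64, 65 and 18 against 51, 77 and 63 counts, with a log2 fold change of 0.36 (adjusted p = 0.389). The part of read placement in the *EIF4A1* value was not tested. With a filter of 10 counts in every library *EIF4A1* was not tested at all, and 1 member remained called.

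**Figure D3:**
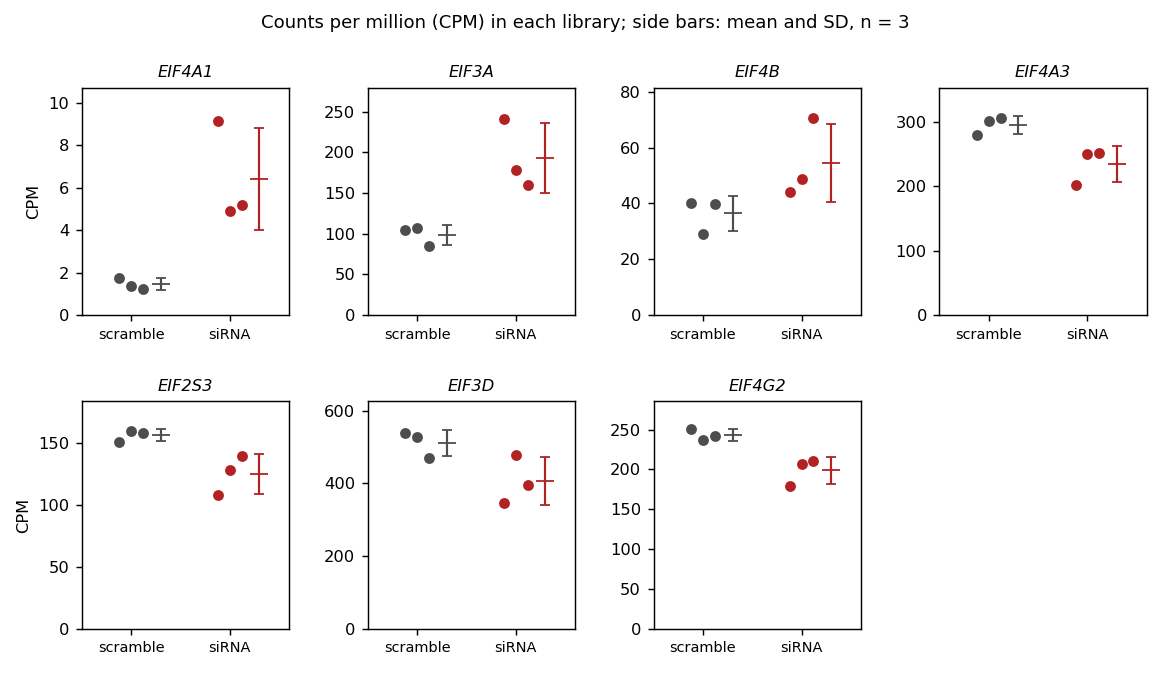
CPM in each library (points) for the 7 members with an unadjusted p under 0.05, with the mean and SD of each group (side bars, n = 3) and every axis starting at 0. *EIF4A1*, *EIF3A* and *EIF4B* were higher and *EIF4A3*, *EIF2S3*, *EIF3D* and *EIF4G2* lower in the siRNA libraries, and only in *EIF3D* do the groups overlap.

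*EIF4A2*, the paralog of *EIF4A1* with a closely similar protein, had 68.3, 76.4 and 58.7 CPM with the scramble siRNA and 57.4, 59.0 and 52.4 CPM with the *SNHG15* siRNA. Its groups overlapped, and its log2 fold change was -0.28 (SE 0.14, adjusted p = 0.244). *EIF4A3*, a related helicase that belongs to the exon junction complex, had 280, 301 and 306 CPM against 202, 249 and 251 CPM. All siRNA libraries were below all scramble libraries, but the log2 fold change of -0.34 (SE 0.13) did not pass the threshold (adjusted p = 0.137). Taken relative to the median of the other 10 tested genes of its group in each library, *EIF4A1* shifted by 1.90 on the log2 scale, given as a description with no test, since the gene was taken for its call and its counts are few and shared.

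*EIF4B*, a cofactor that raises the activity of eIF4A, had the next smallest p of all members. It had 40.3, 29.1 and 39.9 CPM with the scramble siRNA and 44.2, 48.8 and 70.6 CPM with the *SNHG15* siRNA, so that its groups did not overlap and siRNA replicate 3 stood highest. Its log2 fold change was 0.59 (SE 0.19, adjusted p = 0.0895). *EIF4B* passed the threshold without siRNA replicate 1 (log2 fold change 0.73, adjusted p = 0.0256) and with no filter on low counts (0.58, adjusted p = 0.0121). In the other 14 of 16 alternatives it did not pass. Without siRNA replicate 3 the log2 fold change was 0.37 (adjusted p = 0.237), and without scramble replicate 2 it was 0.45 (adjusted p = 0.316). *EIF4H*, the other cofactor, had 171, 141 and 154 against 126, 133 and 151 CPM, with a log2 fold change of -0.18 (SE 0.13).

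The cap-binding protein *EIF4E* was counted at 14, 14 and 5 reads in the scramble and 13, 13 and 17 reads in the siRNA libraries. In CPM its groups did not overlap, yet its log2 fold change of 0.32 (SE 0.33) has an interval from -0.38 to 1.03. A change of either sign could not be resolved with so few reads. *EIF4E2*, a cap-binding protein that represses translation, had a log2 fold change of -0.16 (SE 0.14), and *EIF4E3* had -0.27 (SE 0.20). Of the scaffolds, *EIF4G1* had 234, 257 and 219 CPM against 279, 224 and 189 CPM, with a log2 fold change of -0.04 (SE 0.15), and *EIF4G3* had 0.17 (SE 0.13). *EIF4G2*, which resembles the scaffolds but lacks the site for eIF4E, had 251, 237 and 242 CPM against 179, 207 and 211 CPM. Its groups did not overlap, and the log2 fold change was -0.29 (SE 0.12, adjusted p = 0.173). Within the group of 11, the median log2 fold change was -0.16.

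The 3 genes of eIF2 all had negative values that did not pass the threshold. *EIF2S3*, the gamma subunit that binds GTP and the initiator tRNA, had 151, 160 and 158 CPM with the scramble siRNA and 108, 128 and 140 CPM with the *SNHG15* siRNA. The groups did not overlap, and the log2 fold change was -0.32 (SE 0.13, adjusted p = 0.159). *EIF2S2*, the beta subunit, had 423, 425 and 367 against 332, 356 and 393 CPM, with a log2 fold change of -0.17 (SE 0.12). *EIF2S1*, the alpha subunit whose phosphorylation blocks initiation, had 125, 106 and 134 against 123, 112 and 125 CPM, with a log2 fold change of -0.02 (SE 0.13) and an interval from -0.29 to 0.26.

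The 5 genes of eIF2B lay on both sides of 0, with a median of 0.04. *EIF2B1*, a regulatory subunit, was at 0.23 (SE 0.13), and *EIF2B2*, another one, at -0.26 (SE 0.14), the latter with groups that did not overlap (102, 111 and 103 against 72.1, 93.2 and 98.5 CPM, adjusted p = 0.281). *EIF2B3*, *EIF2B4* and *EIF2B5*, the last of which carries the exchange activity, were at 0.04 (SE 0.18), 0.09 (SE 0.13) and -0.01 (SE 0.12). In the eIF1 group, *EIF1*, which guards start codon choice, had 885, 930 and 753 against 604, 842 and 921 CPM, a log2 fold change of -0.12 (SE 0.16). Its paralog *EIF1B* was at -0.15 (SE 0.18), *EIF1AX*, which helps the small subunit to scan, at -0.15 (SE 0.13), and *EIF1AD*, which carries an eIF1A-like domain, at 0.01 (SE 0.13).

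Of the genes that restrain eIF4E, *EIF4EBP1* had 306, 308 and 218 CPM with the scramble siRNA and 211, 266 and 223 CPM with the *SNHG15* siRNA. The groups overlapped, and its log2 fold change was -0.26 (SE 0.15, adjusted p = 0.345). *EIF4EBP2* was at -0.05 (SE 0.14), and *EIF4ENIF1*, which carries eIF4E to the nucleus and to RNA granules, at 0.15 (SE 0.19). *EIF5A*, a factor of elongation and termination known for its hypusine residue, had 1300, 1298 and 1339 against 1569, 1167 and 1092 CPM. Its mean therefore stayed near the scramble level (log2 fold change -0.04, SE 0.14) while the spread between its libraries was 256 CPM (SD) with the *SNHG15* siRNA and 23.2 CPM with the scramble siRNA, replicate 1 of the siRNA group lying above and the others below every scramble library. *EIF5A2* was at 0.13 (SE 0.16) and *EIF5AL1*, a copy of *EIF5A* without introns, at -0.20 (SE 0.17).

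*EIF5*, the factor that makes eIF2 hydrolyse its GTP, had a log2 fold change of -0.09 (SE 0.13), and *EIF5B*, which joins the subunits, had 0.15 (SE 0.12). *EIF6*, which keeps the large subunit apart until it is mature, had 386, 380 and 407 against 441, 362 and 350 CPM, with -0.02 (SE 0.13). *EIF2A* and *EIF2D*, which can deliver the initiator tRNA without eIF2, were at -0.09 (SE 0.20) and -0.08 (SE 0.15). Over all members, siRNA replicate 1 stood farthest from the other libraries of its group, by a median of 0.23 in log2 CPM against 0.10 to 0.17 for the other 5 libraries. Without it, *EIF3A* had a log2 fold change of 0.76 (adjusted p = 0.00288) and *EIF4A1* one of 1.73 (adjusted p = 0.00492).

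The members also differed widely in level. Levels between genes are given here as CPM per kilobase of the union of all annotated exons in the scramble libraries, with the value per kilobase of the canonical transcript beside it, since unions are longer where a gene has many annotated isoforms. *EIF5A* stood highest on both scales, at 489 ± 8.64 and 1038 ± 18.3 (SD, n = 3). On the union scale *EIF4EBP1* (315 ± 58.2) and *EIF3H* (299 ± 14.6) followed and did not differ beyond their spread, and on the canonical scale *EIF3K* (671 ± 47.6) came next. The values of the tested eIF3 genes spanned orders of magnitude on the canonical scale, from *EIF3K* down to *EIF3A* (14.9 ± 1.83) and *EIF3E* (1.84 ± 0.66). With *SNHG15* silenced, *EIF3A* stood at 29.0 ± 6.46. The tested members at the low end on the canonical scale were *EIF3E*, *EIF4E3* (1.40 ± 0.42), *EIF4A1* (0.83 ± 0.16) and *EIF4E* (0.62 ± 0.051). The values of *EIF3E* and *EIF4E* rest on 30, 25 and 17 and on 14, 14 and 5 counts in the scramble libraries. Whether they give the level of the mRNA was not tested. *EIF4A2* lay at 35.9 ± 4.70 on the same scale. The value of *EIF4A1* is that of the reads placed on it, and since all its stretches are shared with other genes it is no measure of the level of its mRNA against that of *EIF4A2*.

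**Figure D4:**
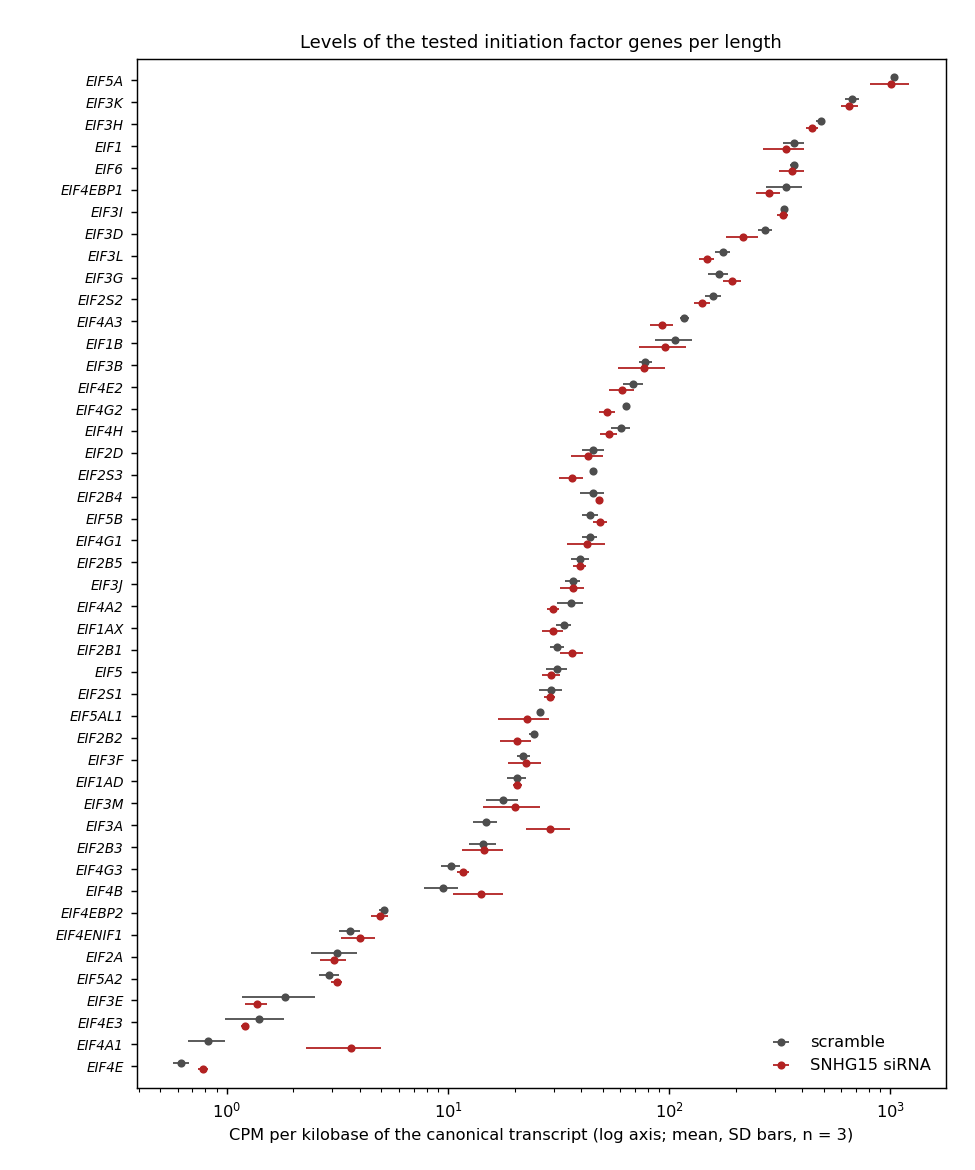
CPM per kilobase of the canonical transcript (log axis) of the 46 tested members in the scramble (black) and *SNHG15* siRNA (red) libraries, as mean with SD bars (n = 3), ordered by the scramble level. The levels run from 1038 for *EIF5A* to 0.62 for *EIF4E*, and *EIF4A1* and *EIF3A* show the widest gap between the conditions.

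Reads from near-identical copies limit what can be said of several members. Of the 51 members, 27 had no 75-base stretch in common with transcripts of another gene and 24 had some. In *EIF3C* and *EIF3CL*, neighboring copies of the same subunit gene, 97.9% and 97.8% of the stretches were shared, and they had at most 4 and 2 counts in any library. *EIF4EBP3*, with 70.4% shared with a read-through transcript, had 0 counts in every library, as did *EIF4E1B*, and *EIF2S3B*, a copy of *EIF2S3* without introns, had at most 5. These 5 genes were below the filter, and no change could be measured in them. Above the filter, the shared fraction was 100% in *EIF4A1*, 52.1% in *EIF3L*, 22.6% in *EIF4B*, 21.8% in *EIF5A*, 21.1% in *EIF6*, 19.3% in *EIF2S2*, 19.0% in *EIF4E*, 12.4% in *EIF2S3*, 10.7% in *EIF5AL1*, 10.4% in *EIF4H* and 10.2% in *EIF3E*. Exons of 24 of the 46 tested members overlap exons of a gene on the opposite strand, and whether the counting used the strand is not given in the sources used here.

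**Figure D5:**
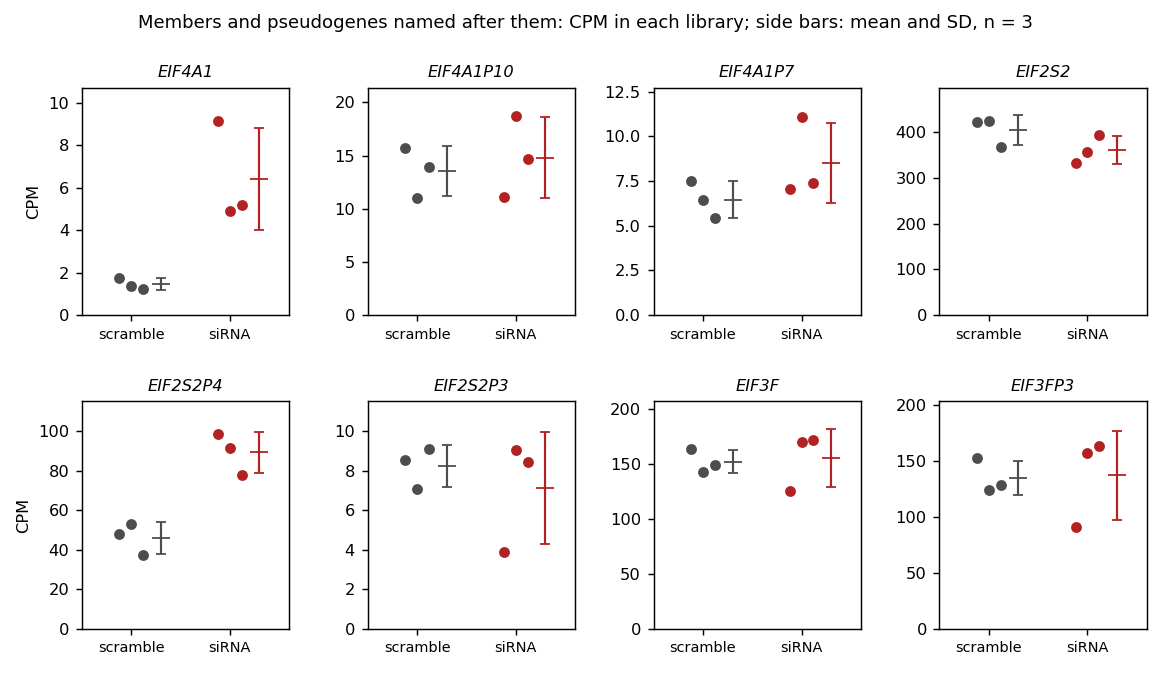
CPM in each library (points) for *EIF4A1*, *EIF2S2* and *EIF3F* beside pseudogenes named after them, with the mean and SD of each group (side bars, n = 3) and every axis starting at 0. *EIF2S2P4* rose in the siRNA libraries while *EIF2S2* and *EIF2S2P3* did not pass the threshold, and *EIF3FP3* had the same low siRNA replicate 1 as *EIF3F*.

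Short sequence features of the promoters were looked at in the RefSeq promoter set (GRCh38.p14, 250 bases before to 50 after each start), which held 59 promoters of 43 of the 51 members. *EIF2S2*, *EIF3A*, *EIF3CL*, *EIF3E*, *EIF3G*, *EIF3H*, *EIF3L* and *EIF4EBP1* were not among them. The E-box CACGTG, which reads the same on both strands and is the core of the sites bound by *MYC* and related factors, occurred in 11 of the 59 promoters (18.6%), each of a different member, and in 7.26% of all 35116 promoters. In *EIF4E* and *EIF4G1* a second E-box lies at -225 and -144 from the start, and only 1 window of each is printed. The windows of 4 genes with an EIF4 symbol are shown, with the E-box in capitals, because they include members with values of either sign.
*EIF4A3*, chromosome 17, 80147228 to 80147265, minus strand: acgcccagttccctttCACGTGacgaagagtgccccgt
*EIF4B*, chromosome 12, 53006418 to 53006455, plus strand: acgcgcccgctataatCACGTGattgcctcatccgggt
*EIF4E*, chromosome 4, 98929184 to 98929221, minus strand: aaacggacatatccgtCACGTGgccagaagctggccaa
*EIF4G1*, chromosome 3, 184314523 to 184314560, plus strand: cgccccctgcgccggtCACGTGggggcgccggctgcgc
Over the 10 tested members with an E-box, 5 had a negative and 5 a positive log2 fold change, from -0.34 for *EIF4A3* to 0.59 for *EIF4B*, with a median of -0.0021. Over the 29 tested members whose promoters lacked it, the median was -0.04.

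The second feature was a start of the kind found in TOP mRNAs, whose translation is controlled through mTOR and *LARP1*, here a C at the annotated start followed by at least 4 bases that are C or T on the strand of the gene. It occurred in 10 of the 59 promoters (16.9%) and in 4.07% of all promoters. The starts are shown for the eIF2, eIF3 and eIF4 members with a value past an unadjusted p of 0.05 and for *EIF3F* and *EIF3K*, with the run of C and T in capitals.
*EIF2S3*, chromosome X, 24054944 to 24054971, plus strand: gtgatttccttcCTCTTTTggcaacatg
*EIF3D*, chromosome 22, 36529151 to 36529178, minus strand: cgcgcatgtttcCTCTTTTCCTggtttc
*EIF3F*, chromosome 11, 7987325 to 7987352, plus strand: cgcttccgcctcCTTCTTTCTCgacaag
*EIF3K*, chromosome 19, 38619176 to 38619203, plus strand: cgtttccaccacCTCTTCCTgttcccgt
*EIF4B*, chromosome 12, 53006444 to 53006471, plus strand: cctcatccgggtCTTTTgcgttctcttt
Of the 9 tested members with such a start, 6 had a negative and 3 a positive log2 fold change, with a median of -0.08, against -0.02 over the 30 tested members without it. *EIF4B*, *EIF3F* and *EIF3K* hold both features, with log2 fold changes of 0.59, 0.03 and -0.04. *EIF3D* was the lowest of those with a TOP start. These matches describe the letters in the windows and were not tested against the fold changes.

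Genes that act on or beside the initiation factors were read from 7 lists with 48 genes, 46 of them tested. Of these, 1 was called higher and 1 lower (against 5.36% of all genes called in either direction), 10 had an unadjusted p under 0.05 (4 higher and 6 lower), and the median log2 fold change was -0.06. *DHX29*, a helicase that works with the scanning ribosome and the only gene called among the 8 initiation and recycling factors without an EIF symbol, had 19.9, 20.8 and 20.3 CPM in the scramble and 43.7, 30.2 and 29.8 CPM in the siRNA libraries. All siRNA libraries were above all scramble libraries, with a log2 fold change of 0.76 (SE 0.17, adjusted p = 0.0232). *GSPT2*, a termination factor, had 17.7, 16.4 and 18.1 CPM against 9.57, 12.1 and 11.0 CPM, with a log2 fold change of -0.67 (SE 0.16, adjusted p = 0.0341), and was the only one called among 5 termination factors. Both calls depended on the libraries used: *DHX29* was called in 13 of 16 alternatives and lost without any 1 of the 3 scramble libraries (highest adjusted p 0.103), and *GSPT2* was called in 10 of 16 (highest adjusted p 0.122).

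None of the other neighbors passed the threshold. Among the 9 genes of the eIF2 kinases and the eIF2 phosphatase, *EIF2AK4*, the kinase that senses uncharged tRNA, had 58.9, 59.3 and 49.0 CPM against 110.5, 81.0 and 66.0 CPM, with a log2 fold change of 0.61 (SE 0.18, adjusted p = 0.0604). It was called in 7 of 16 alternatives (adjusted p from 0.00492 to 0.185), DESeq2 and the replicate block among them. *PPP1R15A*, the inducible subunit of the phosphatase, was at -0.56 (SE 0.20, adjusted p = 0.129). Among 5 genes around the poly(A)-binding proteins, *PABPC1*, which joins the mRNA's tail to eIF4G, had 3308, 3664 and 3059 CPM against 1812, 2805 and 2804 CPM, with groups that did not overlap and a log2 fold change of -0.43 (SE 0.16, adjusted p = 0.129). *PAIP2B*, an inhibitor of the poly(A)-binding protein, had 2.93, 4.28 and 3.93 CPM against 7.21, 4.46 and 6.93 CPM, again without overlap, and a log2 fold change of 0.75 (SE 0.27, adjusted p = 0.121). Among the 11 genes of mTOR and MAPK signaling the median was -0.00095, with *LARP1* lowest at -0.39 (SE 0.15, adjusted p = 0.136) and *MTOR* itself at -0.10 (SE 0.13). The 6 tested elongation factors had a median of -0.12, from -0.26 for *EEF1E1* to 0.02 for *EEF1A1*. *EEF1A1* had only 81 to 355 counts in a library, against 10599 to 35525 for *EEF2*. Whether these counts give the level of its mRNA was not tested. *DHPS* and *DOHH*, the enzymes that make hypusine on eIF5A, were at 0.22 (SE 0.15) and -0.30 (SE 0.17).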

How the data were processed

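RNA of cells labelled LoVo was sequenced in 3 scramble and 3 *SNHG15* siRNA libraries. The authors deposited raw counts of reads per Ensembl gene, not normalized. The submitters' processing notes name STAR, featureCounts and hg19, while the paper's methods name bowtie2 for alignment. Versions, annotation, strand setting and the handling of multiply placed reads are not given in the sources used here. Extraction is by TRIzol in the labels and by a Maxwell kit in the methods.

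The test was that of edgeR 4.0.16 (R 4.3.3): filterByExpr (minimum count 10, total 15), TMM, and the quasi-likelihood test without a block, two-sided, called at an adjusted p under 0.05 (Benjamini-Hochberg over 12507 genes). The SE of a log2 fold change is its size divided by the root of its F statistic. CPM use TMM-scaled library sizes, and log2 CPM a prior count of 2. DESeq2 1.42.0 was an alternative beside 15 others (scaling, filters, protein-coding genes, GC and length offsets by loess with span 0.3, replicate block, leaving out each library). The methods of the study used DESeq2. Both tools were first tested on simulated data. There edgeR recovered 134 of the 200 genes changed, with 6 false calls, and DESeq2 recovered 127, with 10 false calls. The genes raised had a median log2 fold change of 1.01 by edgeR and 1.00 by DESeq2. A gene that was not called can thus still have changed.

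Gene names, positions and lengths came from GENCODE release 44 on GRCh37, and 8012 identifiers had no entry in it. Columns left unassigned numbered 0. Intervals are 95% intervals of the fit, and depth limits counting error only. Members and lists were chosen with earlier results of these data known. Named members are those with an unadjusted p under 0.05, the core subunits, members with shared sequence and those below the filter. All other members are given by value. The methods call the replicates biological, and no source used here says whether they were separate cultures, so p-values measure the spread between these libraries.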

Additional observations from a re-analysis of the deposited data

Results flagged for a closer look

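Pseudogenes named after the members were read beside them. Of 79 such pseudogenes, 43 had counts, 17 were tested, and 1 was called by edgeR, higher in the siRNA libraries, which is 5.88% against 5.36% of all genes. *EIF2S2P4*, a processed pseudogene of *EIF2S2* on chromosome 2 from 171608315 to 171609298 (GRCh37), had 409, 532 and 123 counts in the scramble libraries and 710, 636 and 665 counts in the siRNA libraries. Its log2 fold change was 0.94 (edgeR, adjusted p = 0.00569), it was higher in all 3 siRNA libraries in CPM, and it was called in all 15 alternatives that tested it (0.82 to 1.06). *EIF2S2* itself, which shares 19.3% of its 75-base stretches with this pseudogene and *EIF2S2P3*, was at -0.17, and *EIF2S2P3* at -0.18 (adjusted p = 0.748). The part of read placement in this difference was not tested.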

How the results depend on the processing

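Among 16 alternatives, *EIF3A* kept its direction and call in all (log2 fold change 0.76 to 1.08, adjusted p 3.5e-08 to 0.0432) and *EIF4A1* in the 15 that tested it (1.73 to 2.24, adjusted p up to 0.0484). Of the 15 members named by the rule with a fold change, 236 values stayed on their side of the threshold and 2 did not. These are the 2 *EIF4B* values given above that passed it. The number of members called was 1 with 10 counts in every library, which left *EIF4A1* untested, and 2 or 3 otherwise. The medians of all 8 groups moved by less than the spread between libraries. Only those of eIF2 (-0.24 to -0.11) and of eIF4F and its helicases (-0.21 to -0.09) kept their sign in all alternatives. The medians of the other groups took both signs, as in eIF3 (-0.10 to 0.02) and eIF2B (-0.07 to 0.12). The median over the members ran from -0.0969 with the replicate block and GC offset to -0.0022 with upper-quartile factors, while the median of all genes ran from -0.0381 to 0.0432. Over all genes the calls numbered 671 (392 higher, 279 lower), 1312 without a filter and 139 to 812 when single libraries were left out, with 139 without scramble replicate 2, 199 without scramble replicate 1, 266 without scramble replicate 3 and 356 without siRNA replicate 2. The split of higher and lower calls was 441 and 549 with the GC offset, 345 and 361 with the length offset, 388 and 386 with DESeq2, 685 and 627 without a filter, and 515 and 230 with upper-quartile factors. The pathway neighbors called numbered 2, against 6 without a filter, 4 with the GC offset, 4 with the replicate block and GC offset, and 0 to 3 when single libraries were left out. That was 0 by edgeR without scramble replicate 1 or 2, where 7 and 4 had an unadjusted p under 0.05. With the replicate block *GSPT2* was lost and *EIF2AK4* gained, so that both neighbors called were higher. The median level of the tested members was 22.1 CPM per kilobase of exon union, 30.2 per kilobase of the longest transcript and 38.2 per kilobase of the canonical transcript, an alternative chosen after seeing the data.

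The deviations of same-numbered libraries of both groups had correlations of -0.0703, 0.155 and -0.0416. No reference distribution was made for these values, so they cannot show whether same-numbered libraries were paired. With the replicate block 2 members, 2 neighbors and 543 genes were called (336 higher, 207 lower). Low counts limit *EIF4E*, *EIF3E* and *EIF4A1* most, each with at most 66 counts in a library. The part of depth and of read placement in these counts was not tested.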
